A study of Mus musculus with 12 samples.

Results

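The mRNA of 9 transcription factors that set up and maintain the macrophage lineage was followed in mouse bone marrow-derived macrophages (BMDMs) grown with activin A, with its antagonist follistatin (FST288), or with both. The factors were PU.1 (*Spi1*), IRF8 (*Irf8*), c-MAF (*Maf*), C/EBPα (*Cebpa*), C/EBPβ (*Cebpb*), KLF2 (*Klf2*), KLF4 (*Klf4*), RUNX1 (*Runx1*), and MEF2C (*Mef2c*). They were picked by gene symbol, 9 of the 18376 genes listed, and all 9 were well above the limit for testing. Bone marrow progenitors of adult wild-type C57BL6/J mice received 50 ng/ml mouse recombinant M-CSF in every group, the controls included. CTRL cells received nothing else, Act cells 50 ng/ml human recombinant activin A, FST cells 250 ng/ml FST288, and Act + FST cells both agents at these doses, for 6 days. Each group had 3 libraries of bulk RNA, numbered 1 to 3. The labels do not say whether the numbers stand for separate mice or cultures, so p-values measure the spread between these libraries, which may be technical. BMDMs are macrophages made in a dish and stand in for macrophages of a tissue only as a model.

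Activin A is a ligand of the TGF-β family that signals through SMAD2 and SMAD3, and follistatin binds it and keeps it from its receptors. PU.1 is the pioneer factor of the myeloid lineage and opens enhancers together with C/EBP proteins and RUNX1, while IRF8 pairs with PU.1 and steers progenitors toward monocytes. c-MAF helps to keep mature macrophages out of the cell cycle, KLF2 and KLF4 are zinc finger factors that restrain inflammatory genes in monocytes and macrophages, and MEF2C is a MADS-box factor that acts at stress and lineage genes.

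The deposited value is a whole-number normalized count per gene, and the formula of its normalization is not given in the sources used here. These values summed to between 5643708 and 5955400 per library, so depth after normalization was alike, and the spread between libraries includes counting error. No value was above 6378, and the highest gene mean was 0.883 normalized counts per exonic base, beside a median of 0.0619. *Lyz2*, the macrophage lysozyme, had a mean of 1154.5. Values of densely covered genes thus look compressed, and their levels, shares, and fold changes may be understated. By mean, *Maf*, *Spi1*, and *Cebpa* were more densely covered than at least 97.5% of tested genes. The cells matched their label: 8 macrophage markers, among them *Csf1r*, *Adgre1*, and *Cd68*, summed to between 11172 and 12394 in all 12 libraries. The 3 listed lymphocyte markers summed to at most 24 and the 3 listed mast cell and basophil markers to at most 14. A gene passed at an adjusted p of at most 0.05 (limma, Benjamini-Hochberg over the 14318 genes tested). Fits with the replicate number as a block take out differences shared by same-numbered libraries. Some markers of other myeloid cells differed in Act. The 5 monocyte and progenitor markers summed to 433–844 in CTRL and 1091–1152 in Act, where *Ccr2* and *Cd34* rose and *Kit* fell. The 7 neutrophil markers summed to 840–1124 in CTRL and 658–964 in Act, where *Mpo* and *Elane* fell. The other 5 did not pass. Of them, *S100a8* (mean 125 to 134) and *S100a9* (203 to 214) were slightly higher in Act, and *Ngp* (448 to 420), *Camp*, and *Ly6g* lower. The 6 dendritic cell markers summed to 74–177 in CTRL and 168–233 in Act, and 0 of 4 tested passed in limma. Of these 4, 1 had an unadjusted p under 0.05, and 3 passed the adjusted p with the replicate block. The 6 listed osteoclast markers summed to 1434–1600 and 1560–1681, most of it *Nfatc1* (mean 1241 and 1360, log2 0.13, adjusted p = 0.0519). Among them *Acp5* rose (81.7 to 181), *Ctsk* fell (103 to 32.3), and *Dcstamp* was at 74.7 and 23.7 (log2 -1.52; adjusted p = 0.0562, with the replicate block 6.9e-05). The sums of the neutrophil, dendritic cell, and osteoclast markers overlapped between CTRL and Act. The 5 listed stromal markers summed to 3–55 in CTRL and 12–200 in Act, and replicate 1 stood apart in every group: *Col1a1* and *Col1a2* together had 46, 192, 86, and 93 in replicate 1 of CTRL, Act, Act + FST, and FST, and at most 17 in each of the other 8 libraries. The part of these cells in the results below was not tested, and in bulk RNA fewer cells of a type and less RNA per cell cannot be told apart.

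Activin A changed 4 of the 9 factors, and the 2 with the largest fold change were the KLF factors, which fell. In Act versus CTRL, *Klf4* and *Klf2* fell to less than 0.5 times their control level, *Maf* fell slightly, and *Cebpa* rose. These 4 of 9 factors passed, against 20.2% of all genes tested. Of these, 1 rose (10.3% of all genes) and 3 fell (9.97%). With the replicate block 3 rose and 3 fell, against 31.5% of all genes. The stricter call of a differentially expressed gene (DEG), which also asks for a fold change of at least 2, was met by *Klf2* and *Klf4*, against 5.66% of all genes. The median log2 fold change over the 9 factors was 0.07, beside 0.0036 over all genes tested. The Act libraries did not overlap the other 9 libraries for 5 of the 9 factors (*Irf8* and *Cebpa* higher; *Maf*, *Klf2*, and *Klf4* lower), a pattern met by 23.9% of all genes.

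**Figure D1:**
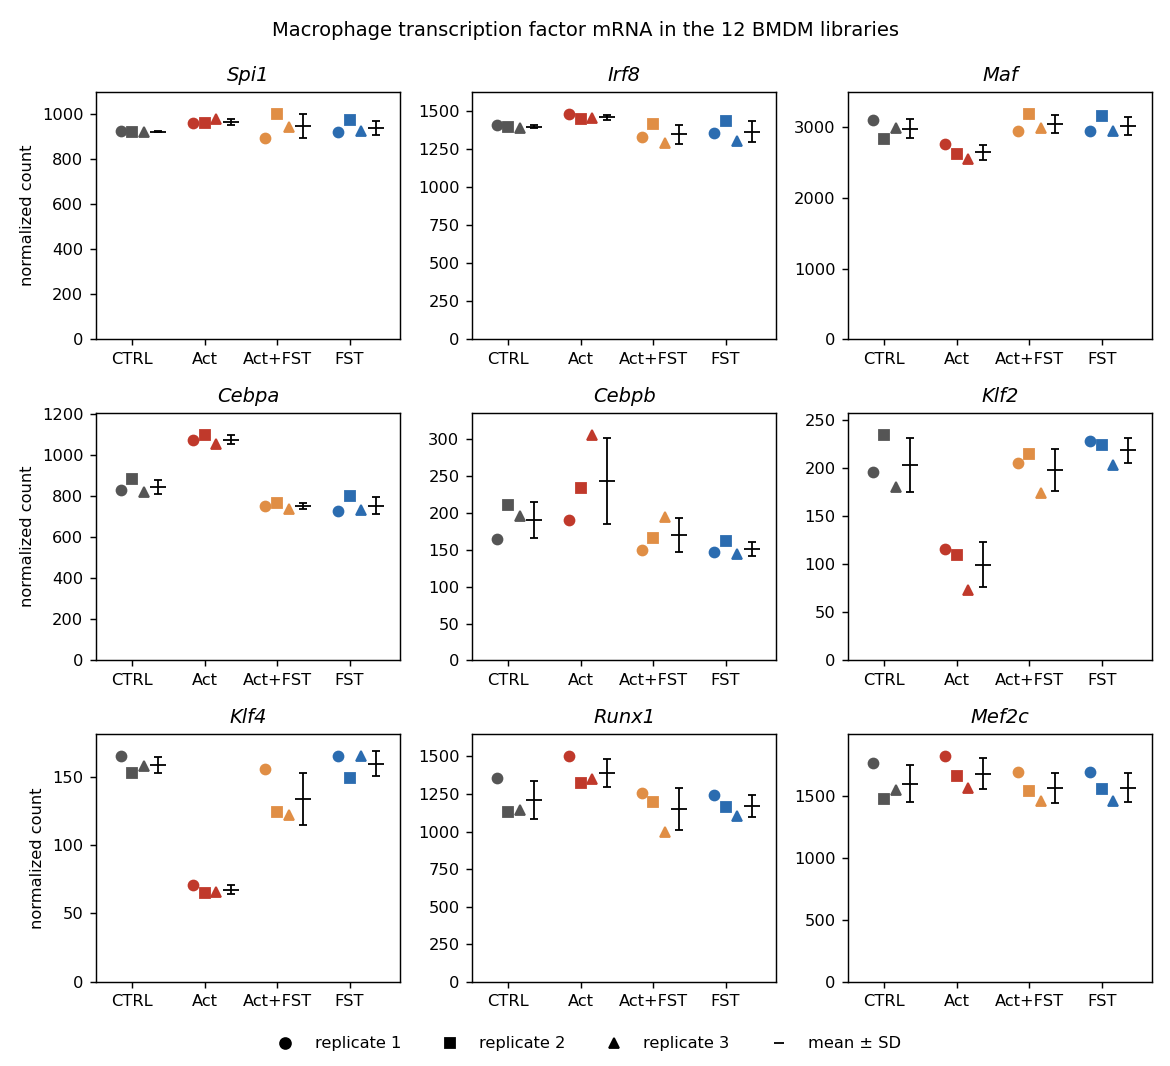
Normalized counts (vertical axes, from 0) of the 9 factors in the 4 groups. Symbols are libraries by replicate number, and bars give the group mean ± SD (n = 3). *Klf4* lay between 65 and 71 in Act and between 122 and 165 in the other groups, whereas the 12 *Spi1* values lay between 893 and 998.

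The 2 KLF factors are described first. *Klf4* (ENSMUSG00000003032; mm10 chromosome 4, 55527143 to 55532466, minus strand) is known for driving monocyte differentiation and alternative activation. It had 165, 153, and 158 normalized counts in CTRL, 71, 65, and 66 in Act, 156, 124, and 122 in Act + FST, and 165, 149, and 165 in FST. All 3 Act libraries lay far below every other library. The mean was 159 ± 6.03 in CTRL and 67.3 ± 3.21 in Act (SD, n = 3), a log2 fold change of -1.22 (SE 0.102) and 0.428 times the control level (95% confidence interval 0.367 to 0.499; adjusted p = 6.9e-06).

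*Klf2* (ENSMUSG00000055148; chromosome 8, 72319033 to 72321656, plus strand) keeps myeloid cells and lymphocytes quiescent. Its values were 196, 234, and 180 in CTRL, 116, 110, and 73 in Act, 205, 215, and 174 in Act + FST, and 228, 224, and 203 in FST. The Act libraries again lay below all others, with replicate 3 the lowest. Act differed from CTRL by -1.04 on the log2 scale (SE 0.158; adjusted p = 0.000541). Its fold change of 2 was met narrowly: without Act replicate 3 the log2 value was -0.83 and without CTRL replicate 2 it was -0.94, both with an adjusted p that still passed. The ratio of *Klf4* to *Klf2* was much alike in Act and in the other 9 libraries (mean log2 -0.53 and -0.45). The difference of -0.08 did not pass an exact permutation test (p = 0.623, adjusted p = 0.818 over 3 ratios, 220 choices of 3 among 12 libraries, two-sided), and its sign changed when Act replicate 1 or 2 was left out.

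Because both KLF genes fell, the bases before their transcription start are shown (RefSeq, GRCm38.p6, each on its own gene's strand). Capitals mark the letters CTANNNNTAG, the core that MEF2 factors bind, which is its own reverse complement.
*Klf2*, chr8:72318812-72319032, plus strand: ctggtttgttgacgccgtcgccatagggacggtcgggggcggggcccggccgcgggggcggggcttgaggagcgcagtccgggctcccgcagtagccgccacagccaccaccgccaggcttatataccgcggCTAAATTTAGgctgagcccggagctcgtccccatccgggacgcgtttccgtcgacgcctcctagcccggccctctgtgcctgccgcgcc
*Klf4*, chr4:55532476-55532725, minus strand: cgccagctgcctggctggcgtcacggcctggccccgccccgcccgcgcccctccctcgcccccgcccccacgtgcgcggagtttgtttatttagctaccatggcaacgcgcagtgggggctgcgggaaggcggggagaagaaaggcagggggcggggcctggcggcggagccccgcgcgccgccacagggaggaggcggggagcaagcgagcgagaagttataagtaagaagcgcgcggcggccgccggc
The *Klf2* stretch held 1 such match, from 118 to 109 bases before the RefSeq start, and the *Klf4* stretch held 0. Of 32851 RefSeq promoters, 3.20% held a match in the 250 bases before their start. The stretches were rich in G and C (71.5% and 74.0%). Neither held the letters CAGAC, part of the SMAD-binding element (searched on both strands, as GTCTG on the other), which 42.2% of promoters held. The letters GAGGAA of ETS sites (TTCCTC on the other strand, in 23.3% of promoters) were found 0 times in the 250 bases before either RefSeq start. The letters CCACCC are bound by KLF proteins (GGGTGG on the other strand, in 28.1% of promoters). In the 250 bases before the RefSeq start they were found 1 time for *Klf2* and 0 times for *Klf4*. The stretch printed for *Klf2* has only the first 221 of these 250 bases. A match describes these letters only, and binding was not measured.

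Of the C/EBP factors, *Cebpa* rose. *Cebpa* (ENSMUSG00000034957; chromosome 7, 35119293 to 35121928, plus strand) encodes the factor that commits progenitors to the myeloid fate. It stood at 831, 885, and 820 in CTRL, 1077, 1098, and 1056 in Act, 753, 766, and 741 in Act + FST, and 727, 804, and 734 in FST. Act libraries were the highest and did not overlap any other group. Both FST288 groups also lay below all CTRL libraries. The rise in Act versus CTRL was 1.27-fold (log2 0.35, SE 0.046, adjusted p = 0.000198).

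*Cebpb* (ENSMUSG00000056501; chromosome 2, 167688915 to 167690418, plus strand) encodes the C/EBP factor of inflammatory and alternative activation. Its values were 164, 211, and 196 in CTRL, 190, 234, and 305 in Act, 149, 166, and 195 in Act + FST, and 147, 162, and 144 in FST. Act and CTRL overlapped, and Act replicate 3 stood above every other library. The log2 difference in Act versus CTRL was 0.33 with a 95% confidence interval of -0.01 to 0.67, and it did not pass (adjusted p = 0.162). With the replicate block it did (adjusted p = 0.0301), and also without Act replicate 1 (log2 0.49, adjusted p = 0.0388). The *Cebpb* exon shares 312 bases with *Tmem189* on the other strand, which had a mean of 543.5 normalized counts. The strand setting of the counting is not given in the sources used here, so reads there could have been lost or split. The log2 ratio of *Cebpb* to *Cebpa* in Act differed from that in the other libraries by 0.04 (exact permutation p = 0.818).

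*Spi1* and *Irf8*, the core pair of the lineage, did not pass in Act versus CTRL. *Spi1* (ENSMUSG00000002111; chromosome 2, 91082390 to 91115756, plus strand) had 924, 918, and 921 in CTRL, 957, 957, and 978 in Act, 893, 998, and 942 in Act + FST, and 918, 973, and 923 in FST. Act lay above CTRL without overlap and inside the range of Act + FST. The 95% confidence interval of the Act to CTRL ratio ran from 0.981 to 1.12 (adjusted p = 0.336), so a change of 2-fold in either direction lay far outside it. *Irf8* (ENSMUSG00000041515; chromosome 8, 120736358 to 120756694, plus strand) had 1411, 1393, and 1389 in CTRL, 1479, 1447, and 1452 in Act, 1331, 1416, and 1290 in Act + FST, and 1354, 1436, and 1303 in FST. Although the lowest Act library (1447) was above the highest of the other 9 (1436), the ratio to CTRL was 1.04 (interval 0.976 to 1.12) and did not pass (adjusted p = 0.39).

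*Runx1* and *Mef2c* shared a pattern tied to the replicate number. *Runx1* (ENSMUSG00000022952; chromosome 16, 92601466 to 92826149, minus strand), which is required for blood stem cell formation and primes myeloid enhancers, had 1354, 1128, and 1146 in CTRL and 1500, 1325, and 1352 in Act. It had 1260, 1194, and 994 in Act + FST and 1246, 1161, and 1105 in FST. Replicate 1 was the highest library of every group, and Act exceeded CTRL at each of the 3 numbers. The log2 difference to CTRL was 0.21 (interval 0.01 to 0.41) and did not pass (adjusted p = 0.144), but it did with the replicate block (adjusted p = 0.00557) and without CTRL replicate 1 (log2 0.29, adjusted p = 0.0461). The collagen genes *Col1a1* and *Col1a2* were, summed, also highest in replicate 1 of every group. Without replicate 1 of all groups the log2 difference of *Runx1* was 0.24 (adjusted p = 0.0650).

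*Mef2c* (ENSMUSG00000005583; chromosome 13, 83504034 to 83667080, plus strand) had 1761, 1475, and 1547 in CTRL, 1815, 1656, and 1561 in Act, 1692, 1537, and 1455 in Act + FST, and 1687, 1549, and 1458 in FST. All groups overlapped, and replicate 1 was again the highest in each. The ratio of Act to CTRL was 1.05 (interval 0.931 to 1.19; adjusted p = 0.597).

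*Maf* (ENSMUSG00000055435; chromosome 8, 115682942 to 115707794, minus strand) had the highest counts of the 9 factors. It had 3104, 2837, and 2991 in CTRL, 2766, 2617, and 2557 in Act, 2946, 3186, and 2996 in Act + FST, and 2947, 3167, and 2942 in FST. The Act libraries were the lowest 3 of the 12. The fall was small, to 0.889 times CTRL (log2 -0.17, SE 0.054, adjusted p = 0.0425). The call was lost without any 1 of CTRL replicates 1 and 3, Act replicates 2 and 3, Act + FST replicate 3, and FST replicates 1 and 3, with adjusted p between 0.0527 and 0.142.

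**Figure D2:**
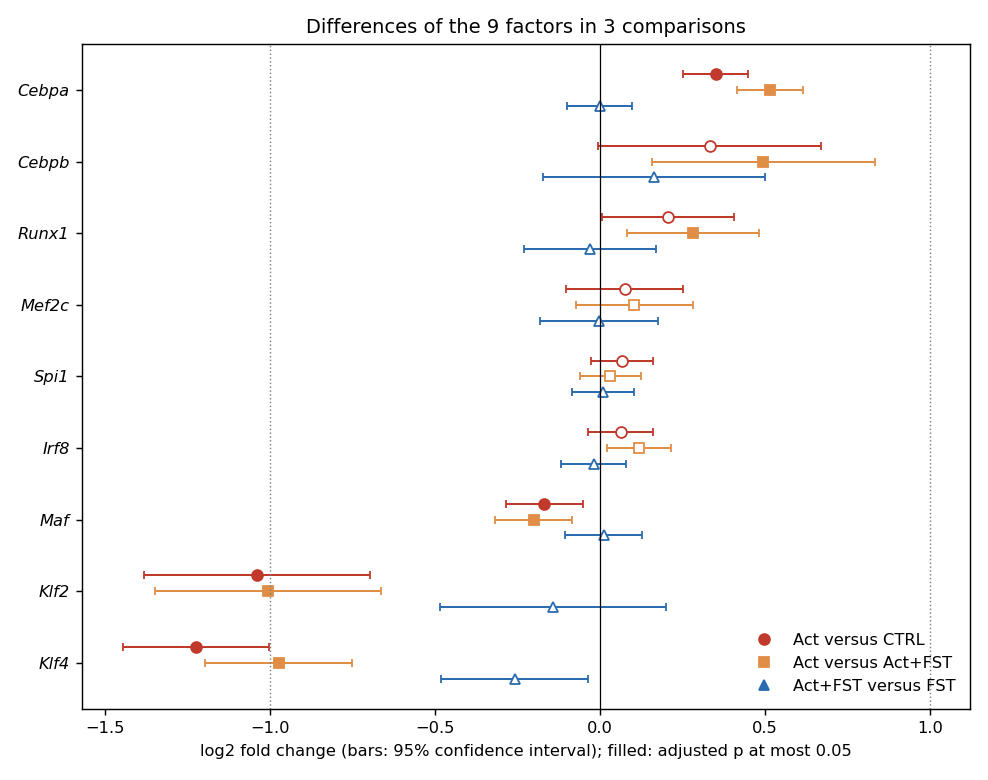
Log2 fold changes of the 9 factors (horizontal axis; bars are 95% confidence intervals) in Act versus CTRL (circles), Act versus Act + FST (squares), and Act + FST versus FST (triangles). Filled symbols have an adjusted p of at most 0.05, and dotted lines mark a 2-fold change. *Klf4* and *Klf2* lay near -1 in the first 2 comparisons, and no triangle is filled.

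Next, activin A without and with its antagonist was compared. In Act versus Act + FST, 6 of 9 factors passed, against 21.3% of all genes tested, 3 of them higher in Act (11.1% of all genes) and 3 lower (10.2%). *Cebpa* (log2 0.52, adjusted p = 1.06e-05), *Cebpb* (0.49, 0.0387), and *Runx1* (0.28, 0.0467) were higher in Act. *Klf2* (-1.01, 0.000702), *Klf4* (-0.97, 3.4e-05), and *Maf* (-0.20, 0.0176) were lower. These values share the Act libraries with the comparison to CTRL and are no independent repeat of it. With the replicate block *Irf8* (log2 0.12; adjusted p = 0.0848, with the block 0.023) and *Mef2c* (0.10; 0.426, with the block 0.0399) passed as well, and the background rose to 32.6% of genes. The *Cebpb* call was lost without any 1 of CTRL replicate 3, Act replicates 2 and 3, Act + FST replicates 1 and 2, and FST replicate 3 (adjusted p 0.0513 to 0.154). The *Runx1* call was lost in 9 of the 12 fits that left out 1 library, and held without CTRL replicate 1, Act + FST replicate 1, or FST replicate 1 (adjusted p over the 12 fits 0.0232 to 0.186). The *Maf* call was lost without Act replicate 2, Act replicate 3, or Act + FST replicate 2 (0.0613 to 0.0732). *Irf8* also passed without Act + FST replicate 2 (log2 0.16, adjusted p = 0.0371). *Klf2* was the 1 DEG here (5.83% of all genes).

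In the presence of FST288 no factor passed the test for activin A. Act + FST versus FST, which shares no library with Act versus CTRL, had 0 of 9 factors past the adjusted p in limma, as had 0% of all genes. At an unadjusted p under 0.05 there was 1 factor, *Klf4* (log2 -0.26, interval -0.48 to -0.04), among 502 genes (3.51%). Act + FST versus CTRL also gave 0 of 9 (0% of all genes). At an unadjusted p under 0.05 it had 2 factors, *Cebpa* (log2 -0.17) and *Klf4* (-0.25), among 655 genes. With the replicate block *Cebpa* passed there (adjusted p = 0.0486), as did 0.559% of all genes. FST versus CTRL gave 0 of 9 (0%), with *Cebpa* (log2 -0.16, interval -0.26 to -0.06) at an unadjusted p under 0.05 among 299 genes.

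Whether FST288 altered the difference made by activin A was tested directly, as the log2 fold change of Act versus CTRL minus that of Act + FST versus FST. It passed for *Klf4* (-0.97, adjusted p = 0.00191), *Cebpa* (0.35, 0.00643), and *Klf2* (-0.90, 0.0318), 3 of 9 factors against 6.74% of all genes. For *Maf* it was -0.18 (adjusted p = 0.201) and for *Runx1* 0.24 (0.351, with the replicate block 0.0315, where 16.3% of all genes passed). The *Klf2* call was lost without any 1 of CTRL replicate 2, Act + FST replicates 1 and 2, and FST replicates 1, 2, and 3 (adjusted p 0.0554 to 0.0800).

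The relatives of the 9 factors were examined next. Among 85 other transcription factors and regulators of the lineage, 77 were listed and 73 tested. Of these, 16 were higher and 5 lower in Act versus CTRL, and 3 and 1 of them were DEGs. As shares, 21.9% were higher and 6.85% lower, beside 10.3% and 9.97% of all genes tested, and the 5.48% that were DEGs were near the 5.66% of all genes. The same shares over all genes are the background of the family counts. In the RUNX, IRF, MAF, ETS, and MEF2 families, at least 1 relative that passed had a larger absolute log2 fold change than the factor itself. *Etv6*, *Klf11*, *Pparg*, *Bhlhe40*, *Nfil3*, *Tal1*, *Myc*, *Trib1*, *Ddit3*, *Mef2d*, *Ciita*, *C1qa*, *Csf3r*, *Thbd*, *S1pr1*, *Mafg*, *Dcstamp*, *Col1a1*, *Col1a2*, *S100a8*, *S100a9*, *Camp*, *Ly6g*, and *Lyz2* are named after their values were seen.

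In the RUNX family 2 of 5 tested relatives passed, both DEGs. *Runx3*, known from T cells and from TGF-β responses, was at 37, 50, and 22 in CTRL and rose to 494, 534, and 502 in Act. It was back at 56, 23, and 63 in Act + FST and stood at 19, 19, and 15 in FST. Act thus exceeded CTRL by 3.85 on the log2 scale (SE 0.34, adjusted p = 1.01e-05). *Runx2*, the osteoblast factor, rose as well, from 152 ± 15.9 to 333 ± 40.4 (log2 1.12, adjusted p = 0.000456). Their partner *Cbfb* gave a log2 value of 0.08 (adjusted p = 0.283). Per kilobase of exon the sum of the 3 RUNX genes went from 125 in CTRL to 255 in Act. *Runx1* made up 80.4% of that sum in CTRL and 45.3% in Act. The *Runx3* share was 3.83% to 8.18% in the CTRL libraries, 37.1% to 42.6% in Act, 3.96% to 11.7% in Act + FST, and 2.76% to 3.26% in FST.

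Of the 3 small MAF proteins, which lack an activation domain, *Maff* rose and was a DEG (mean 25 to 54.7, log2 1.15, adjusted p = 0.0116), but not without CTRL replicate 3 (log2 0.95, adjusted p = 0.0545). *Mafg* gave 0.20 (adjusted p = 0.0657, with the replicate block 0.00123).

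**Figure D3:**
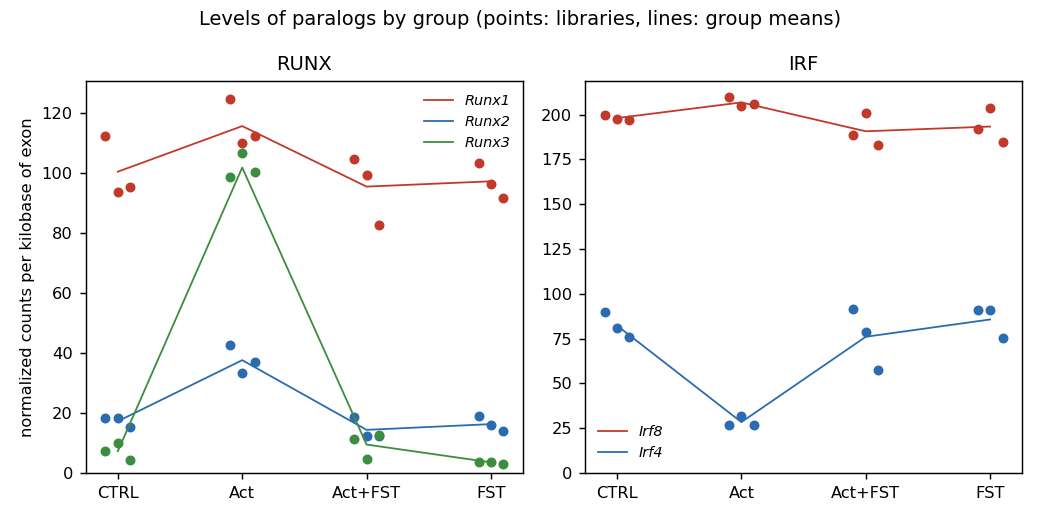
Normalized counts per kilobase of exon (vertical axes, from 0) of the RUNX genes and *Irf8* and *Irf4* in the 4 groups. Points are libraries and lines join group means. In Act, *Runx3* rose to near the level of *Runx1*, and *Irf4* fell while *Irf8* was at 207 per kilobase, beside 198 in CTRL.

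*Irf4*, a partner of PU.1 at the same composite sites as IRF8 and a driver of alternative activation, fell. It had 440, 398, and 372 in CTRL, 132, 155, and 130 in Act, 450, 385, and 283 in Act + FST, and 445, 446, and 369 in FST. The log2 fold change was -1.53 (SE 0.143, adjusted p = 1.4e-05), the 1 call among 7 tested relatives of *Irf8* (2 with the replicate block). Per kilobase, *Irf4* was 27.8% to 31.0% of the *Irf4* and *Irf8* sum in the CTRL libraries and 11.4% to 13.4% in Act. The relative with the highest mean, *Irf5*, gave 0.05 (adjusted p = 0.589).

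In the other families the changes were below 2-fold. Of 9 tested KLF relatives, 1 rose (*Klf11*, a TGF-β inducible factor, log2 0.49, adjusted p = 0.0218), and 2 with the replicate block. *Klf11* was lost without any 1 of CTRL replicates 2 and 3 and Act replicates 1, 2, and 3 (0.0516 to 0.0736). *Klf6*, the most abundant of them, gave -0.02 (adjusted p = 0.84). Of these 9 relatives, 0 were lower in limma past the adjusted p, and 0 at an unadjusted p under 0.05. Of 10 ETS relatives 1 rose (*Etv6*, a repressor, log2 0.50, adjusted p = 0.000141), with 4 passing under the replicate block, *Elf4* among them (0.13; adjusted p = 0.0738, with the block 0.00945). Of 4 C/EBP relatives, *Cebpg* rose (log2 0.28, adjusted p = 0.000501) and *Ddit3*, which encodes the stress factor CHOP, fell (-0.33, 0.00368). *Mef2a* (0.32, 0.000214) and *Mef2d* (0.18, 0.00529) rose, 2 of 6 tested genes of the MEF2 and class IIa HDAC list, beside *Mef2c* above.

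**Figure D4:**
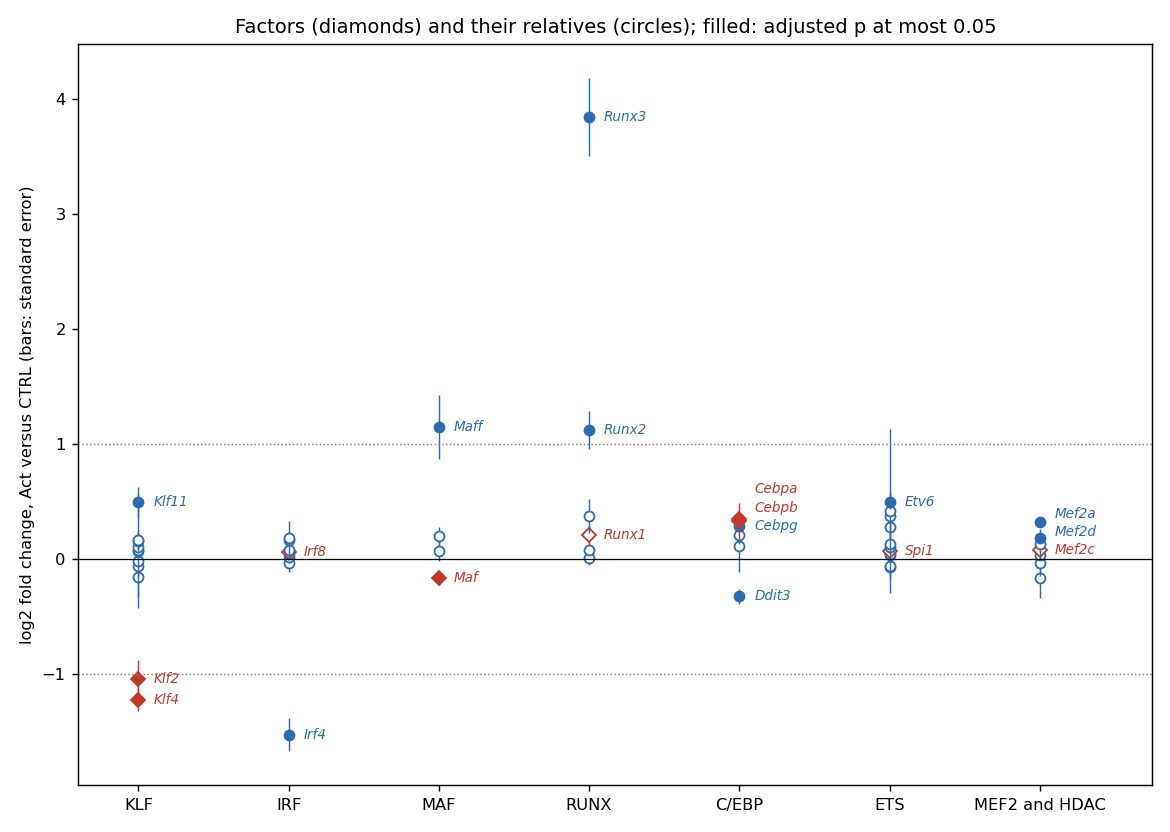
Log2 fold change in Act versus CTRL (vertical axis; bars are standard errors) of the 9 factors (diamonds) and of the relatives reported for each family (circles). Filled symbols have an adjusted p of at most 0.05, and dotted lines mark a 2-fold change. *Runx3* at 3.85 stands alone at the top, and *Irf4*, *Klf4*, and *Klf2* are the lowest.

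Among 20 tested factors of other families with a role in macrophages, 6 rose and 1 fell. The fall was *Pparg*, the lipid-sensing nuclear receptor, from 420 ± 16.8 to 223 ± 44.4 (log2 -0.93, adjusted p = 0.000139). *Bhlhe40*, a repressor linked to macrophage proliferation, went from 235 ± 10.6 to 407 ± 24.4 (0.79, 2.1e-05), and *Nfil3* rose by 0.52 (0.000813). *Zeb2*, the most abundant of the list and a keeper of macrophage identity, gave 0.02 (adjusted p = 0.881). Of 6 tested progenitor factors, *Tal1* rose (0.64, 2.3e-05), while *Lmo2* (-0.17, 0.0163) and *Myc* (-0.86, 0.0222) fell. *Lmo2* was lost without CTRL replicate 2 or Act replicate 2 (0.0609 and 0.0695). *Myc* was lost without any 1 of CTRL replicates 1 and 2 and Act replicates 2 and 3 (0.0550 to 0.0956). Of 3 tested regulators of C/EBP proteins, *Trib1*, an adaptor that brings C/EBPα to the ubiquitin ligase COP1, rose from 320 ± 11.5 to 497 ± 28.4 (log2 0.63, adjusted p = 0.000692). *Cop1* gave 0.18 (0.0552, with the block 0.0328).

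Of 28 tested genes known as targets of the factors, 4 rose and 3 fell, so 7 of 28 passed, beside 20.2% of all genes. Of 9 PU.1 and RUNX1 targets 1 rose, *Csf3r*, the G-CSF receptor (log2 0.49, adjusted p = 0.000184), and *Csf1r*, the M-CSF receptor, gave 0.04 (adjusted p = 0.761). With the replicate block 2 of the 9 rose and 1 fell. Of 5 tested IRF8 targets 0 passed in limma, and at an unadjusted p under 0.05 there were 2, 1 higher and 1 lower. *Cybb*, the NADPH oxidase subunit, gave 0.16 (0.0667, with the block 0.0115). *Ciita*, the master regulator of MHC class II, had 446, 411, and 242 in CTRL and 261, 190, and 171 in Act. It overlapped between these groups (log2 -0.79; adjusted p = 0.124, with the block 0.000347). Replicate 3 was the lowest library in all 4 groups, with 140 in Act + FST and 239 in FST.

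Of 7 listed targets of MAF factors, 2 rose and 1 fell. *Il10*, the anti-inflammatory cytokine that c-MAF induces, had 84, 89, and 76 in CTRL, 28, 36, and 20 in Act, 96, 98, and 85 in Act + FST, and 90, 102, and 90 in FST. The Act libraries lay below all others (log2 -1.57, adjusted p = 6.3e-05). *C1qa*, a complement gene, rose (0.42, 0.000825; 0.75 when reads sharing a start position were allowed for). *Vsig4*, a complement receptor, had only 17, 7, and 1 in CTRL and 41, 31, and 27 in Act (log2 2.34, adjusted p = 0.0248). Its call was lost without CTRL replicate 3 (log2 1.48) or any 1 Act library (0.0532 to 0.0794). Of 4 tested C/EBP targets 0 passed in limma, 0 also at an unadjusted p under 0.05, and *Msr1*, the most abundant, gave 0.05 (adjusted p = 0.673). All 3 listed targets of KLF2 and KLF4 passed, in both directions. *Thbd*, thrombomodulin, fell (-0.56, 3.3e-05), as did *Mrc1*, the mannose receptor (-0.51, 0.000117), while *S1pr1*, a sphingosine-1-phosphate receptor, rose (0.39, 0.000193).

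**Figure D5:**
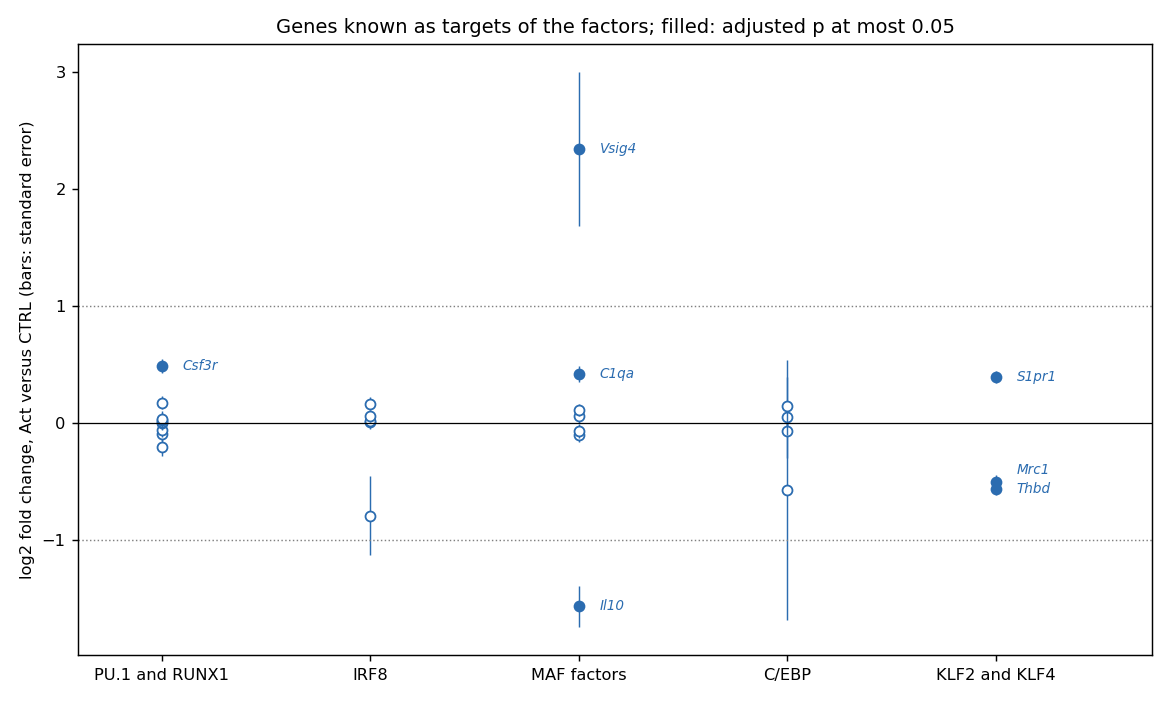
Log2 fold change in Act versus CTRL (vertical axis; bars are standard errors) of the tested targets, by list. Filled symbols have an adjusted p of at most 0.05, and dotted lines mark a 2-fold change. *Il10* and *Vsig4* lay past the dotted lines, in opposite directions, and no IRF8 or C/EBP target is filled.

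Levels were compared between the factors per kilobase of exon, within the limit on densely covered genes given above. The length joins the exons of all listed transcripts of a gene, which lowers the level of genes with many transcripts. *Mef2c* had 31 transcripts (15715 bases) and *Runx1* 7 (12025), but *Klf2* (1847) and *Cebpb* (1504) had 1 each. Other lengths were not tried. By CTRL means the order was *Maf* (361), *Spi1* (342), *Cebpa* (321), *Irf8* (198), *Cebpb* (127), *Klf2* (110), *Mef2c* (101), *Runx1* (101), and *Klf4* (52.0 normalized counts per kilobase). The CTRL libraries of *Cebpb*, *Klf2*, *Mef2c*, and *Runx1* overlapped from each neighbor to the next, and those of the other neighbors did not, although *Maf* (at least 344) and *Spi1* (at most 343) were barely apart. The order differed in Act. There *Cebpa* reached 401 to 417 per kilobase in its 3 libraries, above every Act library of *Spi1* (at most 363) and *Maf*. The *Klf2* mean was above that of *Mef2c* in CTRL, in Act + FST (107 and 99.4), and in FST (118 and 99.6), but below it in Act (54.0 and 107), where its libraries (at most 62.8) did not reach those of *Mef2c* (at least 99.3).

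As a description, the genes whose profile over the 12 libraries was most like that of each factor were listed among 10634 genes with a mean of at least 50 (Pearson r of log2 values; the libraries share groups and replicate numbers). They were *Sel1l3* (r = 0.994), *Cpe*, and *Epb41l1* for *Klf4*, *Clec2i* (0.982), *Tslp*, and *Adcy3* for *Klf2*, and *Cpeb2* (0.973), *Gart*, and *Mylip* for *Cebpa*. For *Maf* they were *Ubap2l* (0.983), *Ctsb*, and *Ehd4*, for *Irf8* *Trf* (0.982), *Glul*, and *Il10ra*, and for *Spi1* *Pld4* (0.940), *C1qc*, and *Mfsd5*. For *Cebpb* they were *Btbd19* (0.940), *Rxrb*, and *Ash2l*, for *Runx1* *Itch* (0.977), *Arl5a*, and *Nr2c1*, and for *Mef2c* *Tbl1x* (0.965), *Prkdc*, and *Cep170*. Among the factors themselves *Klf2* and *Klf4* had the highest r (0.913), followed by *Runx1* and *Mef2c* (0.865), and the lowest was that of *Klf4* and *Cebpa* (-0.876).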

How the data were processed

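Libraries were made from total RNA with a stranded mRNA kit and sequenced single-end. Per the labels and the study's methods, the authors trimmed reads with Trimmomatic 0.39, aligned them to mm10 with STAR 2.7.9a, counted those in exons with featureCounts 2.0.2, excluding reads on several genes or positions, and used DESeq2 1.30.0 for their own calls. The deposited signal is a whole-number normalized count per gene; the formula and the strand setting are not given in the sources used here.

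Here log2(normalized count + 1) of genes averaging at least 5 (14318 genes) was fitted with limma 3.58.1 (R 4.3.3, empirical Bayes with a trend) with 4 group means over all 12 libraries, and p-values were adjusted by Benjamini-Hochberg over all genes. Fold changes are on this scale and understate those of low genes. Tests were two-sided. Beyond the 9 factors, the text names DEGs of each list (at most 4), the gene of each list with the highest mean, and the 3 genes most like each factor, plus those said to be chosen after their values were seen. Members and lists were chosen with earlier results of these data known. Same-numbered libraries of different groups deviated together from their group means (18 pairs, mean r 0.312, range 0.157 to 0.481). Pairs of different numbers had a mean r of -0.155 (range -0.358 to 0.169), so the ranges overlapped. By mean r to the libraries of each number in the other groups, all 12 libraries were closest to their own number. The numbers, which come from the labels, were therefore used as a block in an alternative fit. The main fit did not use them, so calls given without the block ignore this pairing. On simulated data for Act versus CTRL (14318 genes) the fit called 99 of 100 genes changed 2-fold, 13 of 100 changed 1.3-fold, and 2 of 14118 unchanged genes. Of 3 log2 ratios tested, 1 is not reported here, nor is 1 gene of the lists. Exon lengths are from GENCODE M21, as the union of exons over all transcripts of a gene. Levels and shares per kilobase rest on this choice. All 9 symbols matched, and 7 had a RefSeq promoter. Replicates of a group had a mean chi-square per gene of 1.46 to 4.78 on the deposited values, where counting noise alone gives about 1, and were kept as separate libraries, which does not exclude technical repeats. Alternatives were other pseudocounts, filters, scalings, and fits, the block on replicate number, and values corrected for shared start positions. Further fits lacked 1 library each or replicate 1 of all groups.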

Additional observations from a re-analysis of the deposited data

Results flagged for a closer look

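The difference between Act and CTRL depended on FST288 for 3 of the 9 factors, by the test of the difference itself in limma. That test passed for 6.74% of all genes, and the *Klf2* call held in only 14 of 22 alternatives. The log2 fold change of Act versus CTRL minus that of Act + FST versus FST was 0.35 for *Cebpa*, -0.90 for *Klf2*, and -0.97 for *Klf4*.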

How the results depend on the processing

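*Cebpa*, *Klf2*, and *Klf4* passed in Act versus CTRL under all 23 alternatives, *Maf* under 13 (log2 -0.21 to -0.14, adjusted p 0.0124 to 0.142), and *Cebpb* and *Runx1* each under 2. In the test of the difference between differences, *Cebpa* and *Klf4* passed under all 22 and *Klf2* under 14 (it was not run on the compared groups alone, which are all 4). With the replicate block, 1 factor passed in Act + FST versus CTRL (*Cebpa*), and beside the calls given in the report it changed no other call of the 9 factors. DEGs among the factors in Act versus Act + FST numbered 0 with a pseudocount of 5 and 0 with quantile normalization. Without 1 library, DEGs ranged from 0 to 2 there and from 1 to 2 in Act versus CTRL, and factors past the adjusted p ranged from 3 to 6 in Act versus Act + FST.

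Values that changed sign did not pass. In Act versus CTRL without 1 library, *Klf6* ranged from -0.058 to 0.029, with 0.0014 without Act replicate 2. *Zeb2* ranged from -0.033 (without CTRL replicate 2) to 0.075 and was -0.027 without Act replicate 1. *Msr1* ranged from -0.0035 (without CTRL replicate 3) to 0.13 and was -0.0031 without Act replicate 1. *Csf1r* was -0.0059 with quantile normalization. *Spi1* in Act versus Act + FST was -0.017 with quantile normalization, -0.0084 to 0.072 without 1 library (lowest without Act + FST replicate 1), and -0.0032 without replicate 1 of all groups. For *Cebpb* the difference between differences ranged from -0.0082 (without Act replicate 3) to 0.33. The ratio of *Cebpb* to *Cebpa* ranged from -0.16 to 0.20, and that of *Klf4* to *Klf2* from -0.27 to 0.031. The cause was not tested.

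An alternative added after seeing the data allowed for reads sharing a start position, as estimated from the normalized counts and exon lengths. It changed no call of the 9 factors and gave log2 values of 0.44 for *Cebpa*, -0.21 for *Maf*, and 0.75 for *C1qa*. Another added alternative left out replicate 1 of all groups. There *Maf* did not pass in Act versus CTRL (limma adjusted p = 0.0649), nor *Klf2* in the difference between differences (0.0725).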
